A study of Mus musculus with 12 samples.

Results

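The class B Eph receptors and ephrins were followed as 8 genes chosen by name, out of 45777 genes listed for each library. They were the 5 EphB receptors *Ephb1*, *Ephb2*, *Ephb3*, *Ephb4* and *Ephb6* and the 3 ephrin-B ligands *Efnb1*, *Efnb2* and *Efnb3*, and the rule used no measured value. Each was found by its NCBI Gene identifier, and all 8 passed the expression filter in every comparison. Ventral spinal cord of E12.5 mouse embryos was trimmed around *Hb9::GFP*, a reporter of motor neurons (MNs), and its total RNA sequenced in 12 libraries. Heterozygotes (*Isl2* +/-, "Het") and knockouts (*Isl2* KO, in which a neomycin cassette replaces exons of the LIM-homeodomain gene *Isl2*) gave 3 libraries each at the brachial (forelimb) level and 3 each at the lumbar (hindlimb) level. The controls therefore also carried a mutant *Isl2* allele, no wild type was included, and the design names 3 embryos of each genotype, so brachial and lumbar libraries may come from the same embryos, although the labels do not say which. The tissue held progenitors, interneurons, vessels and blood as well as MNs, so a level is that of the whole piece, in which fewer cells of a type and less RNA per cell cannot be told apart.

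EphB receptors are receptor tyrosine kinases that bind membrane-anchored ephrin-B ligands on neighbouring cells. Signals pass both ways, forward through the kinase of the receptor and in reverse through the cytoplasmic tail and PDZ-binding end of the ligand. In the spinal cord, EphB receptors on medial lateral motor column neurons and ephrin-B in the limb are known for steering motor axons into the ventral limb, and ephrin-B3 is a midline repellent of axons. EphB4 and ephrin-B2 are the classical pair of veins and arteries, and EphB6 lacks kinase activity.

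The promoters of the members that the results turn on are shown first, *Ephb6* and *Ephb3* because they differed between spinal levels, and *Efnb2* and *Ephb1* because they had the largest log2 differences between genotypes at the brachial level. Each is the 250 bases before a start of transcription on the strand of the gene, 5′ to 3′, from RefSeq on GRCm38.p6 (mm10). For *Ephb1* and *Efnb2* it ends where the gene's span begins, whereas the *Ephb6* window lies inside the span and the *Ephb3* window overlaps its first bases, so these precede 1 of several annotated starts. Capitals mark 4 short motifs searched on both strands: the CCAAT box (CCAAT), the GC box (GGGCGG), the homeodomain core (TAAT) and the TATA box (TATAAA).
Ephb6: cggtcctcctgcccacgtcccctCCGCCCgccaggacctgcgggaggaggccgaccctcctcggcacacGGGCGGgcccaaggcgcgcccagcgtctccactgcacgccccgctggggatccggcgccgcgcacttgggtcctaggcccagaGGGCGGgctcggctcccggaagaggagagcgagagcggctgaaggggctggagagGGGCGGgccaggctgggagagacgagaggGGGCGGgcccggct
Ephb3: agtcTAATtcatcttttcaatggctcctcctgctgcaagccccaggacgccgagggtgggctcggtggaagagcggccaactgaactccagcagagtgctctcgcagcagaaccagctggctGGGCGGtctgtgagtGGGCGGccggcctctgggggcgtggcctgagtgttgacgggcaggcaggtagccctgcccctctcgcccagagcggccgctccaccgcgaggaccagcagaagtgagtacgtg
Efnb2: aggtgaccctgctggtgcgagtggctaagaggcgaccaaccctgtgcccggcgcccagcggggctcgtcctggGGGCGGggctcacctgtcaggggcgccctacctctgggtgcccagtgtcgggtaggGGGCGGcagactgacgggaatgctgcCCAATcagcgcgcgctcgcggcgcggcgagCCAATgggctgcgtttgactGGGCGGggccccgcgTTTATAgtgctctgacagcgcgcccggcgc
Ephb1: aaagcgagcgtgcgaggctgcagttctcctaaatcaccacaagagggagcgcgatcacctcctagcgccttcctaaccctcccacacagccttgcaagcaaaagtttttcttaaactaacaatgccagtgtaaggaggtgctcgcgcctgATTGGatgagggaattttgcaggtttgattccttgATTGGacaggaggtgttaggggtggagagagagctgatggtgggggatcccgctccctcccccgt
The *Ephb6* window lies at chr6:41605261-41605510 on the plus strand, *Ephb3* at chr16:21204545-21204794 on the plus strand, *Efnb2* at chr8:8661243-8661492 on the minus strand and *Ephb1* at chr9:102354694-102354943 on the minus strand.

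These 4 windows differ in composition. The *Ephb6* window is 76.8% G or C with 5 GC boxes and neither a CCAAT box nor a TAAT, and the *Ephb3* window is 65.6% G or C with 2 GC boxes and 1 TAAT. *Efnb2* has 2 CCAAT boxes, 3 GC boxes and a TATA box read on the opposite strand (72% G or C), and *Ephb1* has 2 CCAAT boxes, both on the opposite strand, and no GC box (54% G or C). Windows of the same length for *Ephb2*, *Ephb4* and *Efnb1* each hold 1 CCAAT box, and that of *Ephb4* also has 4 GC boxes and 1 TAAT. Over 32851 promoters of this length, 33.8% hold a CCAAT box, 32.7% a GC box, 54.9% a TAAT and 12.4% a TATA box, and the median G or C content is 52.4%. All 7 member windows available are above that median. The motifs are letter matches only, and no binding was measured.

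Levels are given as TPM, a length-corrected share of the transcripts of a library, rescaled between libraries so that the typical gene has the same level in all. A library had an inferred 4.48 to 6.64 Gb of aligned bases, and the brachial KO replicate 3 had the fewest. This depth was taken from the most common ratio of coverage to FPKM among the genes of a library. *Isl2* was 8.33 to 10.3 TPM in the 6 Het libraries and 4.47 to 8.24 TPM in the 6 KO libraries, so the genotypes did not overlap, and reads from the gene remained in KO. In TPM as deposited they did overlap, since brachial KO replicate 2 was at 9.08 against 8.03 to 10.4 in Het. MN markers were present in every library (summed level of 11 genes 234 to 562 TPM). Sums of the 10 ventral progenitor markers were 2387 to 3289 TPM. They came mostly from *Fabp7* and *Vim* (means of 1716 and 666 TPM), while *Olig2*, *Nkx6-1* and *Nkx2-2* averaged 3.52, 5.11 and 1.83 TPM. Sums of the 10 blood markers were 2377 to 6701 TPM, highest in a brachial KO library. Sums of the 9 sensory neuron markers were 14.6 to 27.4 TPM, most of it from *Pou4f1* (10.3 to 17.1 TPM), while *Scn10a* and *Runx3* were listed at 0 in all 12 libraries.

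All 8 members were expressed in all 12 libraries, within a range of mean levels from 5.84 to 31.1 TPM. *Ephb2* was the most abundant receptor transcript at 31.1 ± 3.45 TPM (SD over 12 libraries). *Efnb3* followed at 26.7 ± 2.50 TPM, *Ephb6* at 24.5 ± 3.79 TPM and *Ephb1* at 23.6 ± 6.16 TPM. *Efnb1* was at 20.6 ± 2.38 TPM and *Efnb2* at 19.5 ± 2.80 TPM, *Ephb3* at 13.5 ± 1.68 TPM, and *Ephb4*, the vein receptor, was lowest at 5.84 ± 0.514 TPM. Among 13270 protein-coding genes past the filter, 68.7% had a lower mean level than *Ephb2* and 26.4% a lower one than *Ephb4*.

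The order was firm at its ends and loose in the middle. *Ephb2* exceeded *Efnb3* in 12 of 12 libraries, *Efnb2* exceeded *Ephb3* in 12 of 12, and *Ephb3* exceeded *Ephb4* in 12 of 12 with ranges that did not overlap (11.1 to 15.7 against 5.07 to 6.66 TPM). *Efnb3* was above *Ephb6* in 9 libraries and *Ephb6* above *Ephb1* in 9. *Ephb1* was above *Efnb1* in only 6 of 12 and *Efnb1* above *Efnb2* in 7, so these neighbours did not differ beyond their spread. The middle of the order also differed by level. *Efnb3* was above *Ephb6* in 3 of 6 brachial and 6 of 6 lumbar libraries, and mean *Ephb1* was above *Efnb1* in brachial (27.0 against 19.8 TPM) but below it in lumbar libraries (20.2 against 21.3 TPM). With per-base coverage in place of TPM, *Ephb2* stayed first and *Ephb4* last, but *Ephb1* moved to rank 2 and *Ephb6* to rank 5, and *Ephb3* passed *Efnb2* (38.3 against 31.0 units of coverage). Relative to genes with a single transcript, coverage was lowest for *Efnb2*, at 0.507 to 0.578 of what its FPKM implied, against 0.986 to 0.987 for *Ephb2*.

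**Figure D1:**
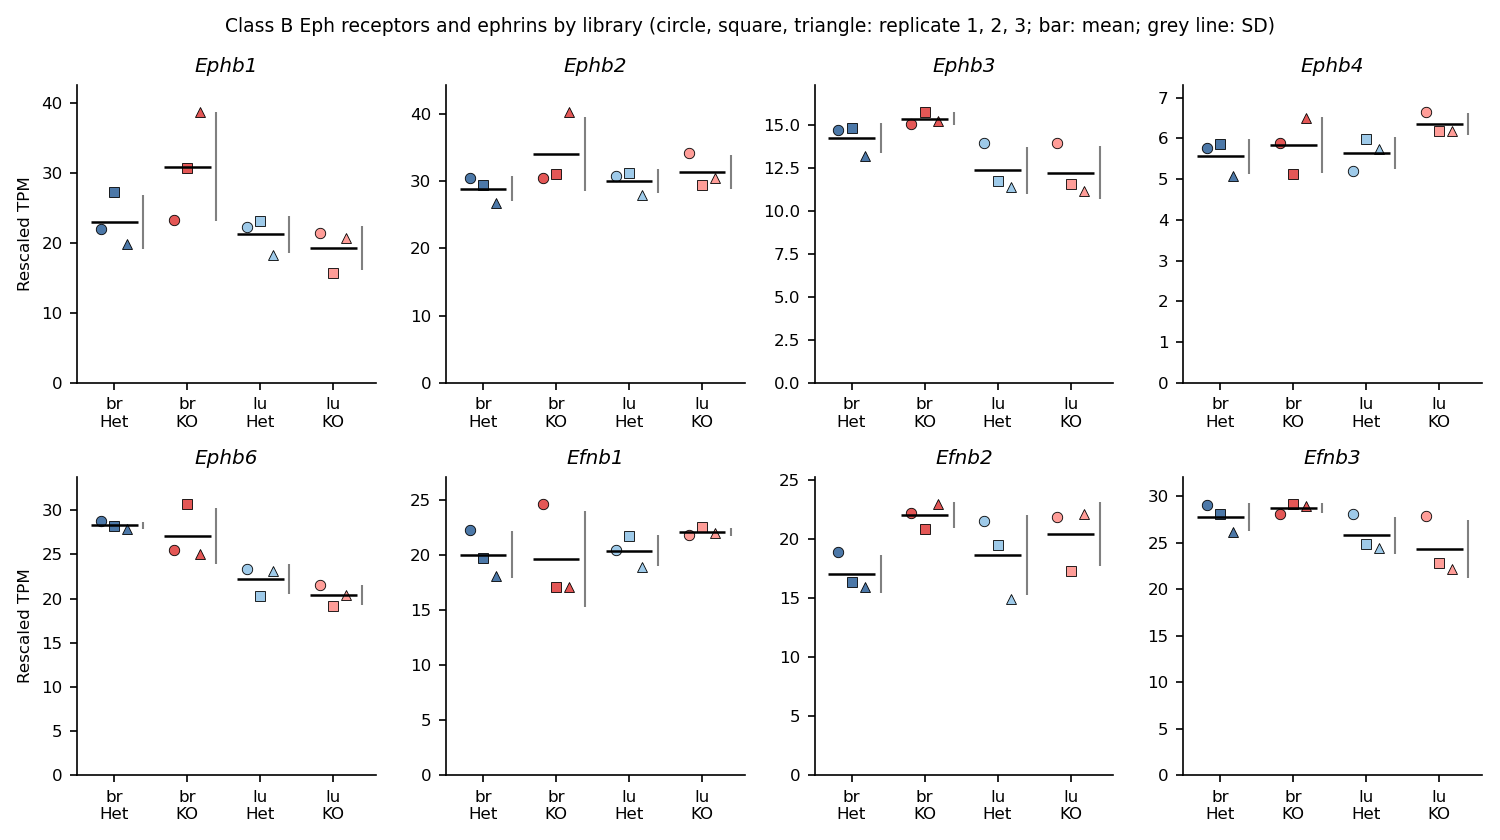
Rescaled TPM of each of the 8 members (vertical axis, from 0) in the 12 libraries, by brachial (br) or lumbar (lu) level and *Isl2* genotype, with circle, square and triangle for replicates 1, 2 and 3, a bar for the group mean and a grey line for ± SD (n = 3). All 6 lumbar *Ephb6* values (19.2 to 23.3 TPM) sit below all 6 brachial values (25.1 to 30.7 TPM), and the highest *Ephb1* and *Ephb2* values are both in brachial KO replicate 3.

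Summed over the 5 receptors, levels were 82.0 to 126 TPM per library, and summed over the 3 ligands 58.4 to 75.0 TPM. Receptor transcripts exceeded ligand transcripts in every library, by 1.31 to 1.82 times. The ratio averaged 1.58 ± 0.176 in the 6 brachial libraries and 1.38 ± 0.0591 in the 6 lumbar libraries, with overlap (1.33 to 1.82 against 1.31 to 1.48). *Ephb2* made up 27.4% to 32.1% of the brachial receptor sum and 32.2% to 35.8% of the lumbar one. *Ephb6* made up 19.9% to 30.1% and 21.9% to 26.8%. Among the ligands the share of *Efnb3* lay between 33.5% and 43.8%, against 24.8% to 36.0% for *Efnb1* and 25.5% to 33.4% for *Efnb2*. These sums and shares are descriptions of the chosen genes and were not tested.

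**Figure D2:**
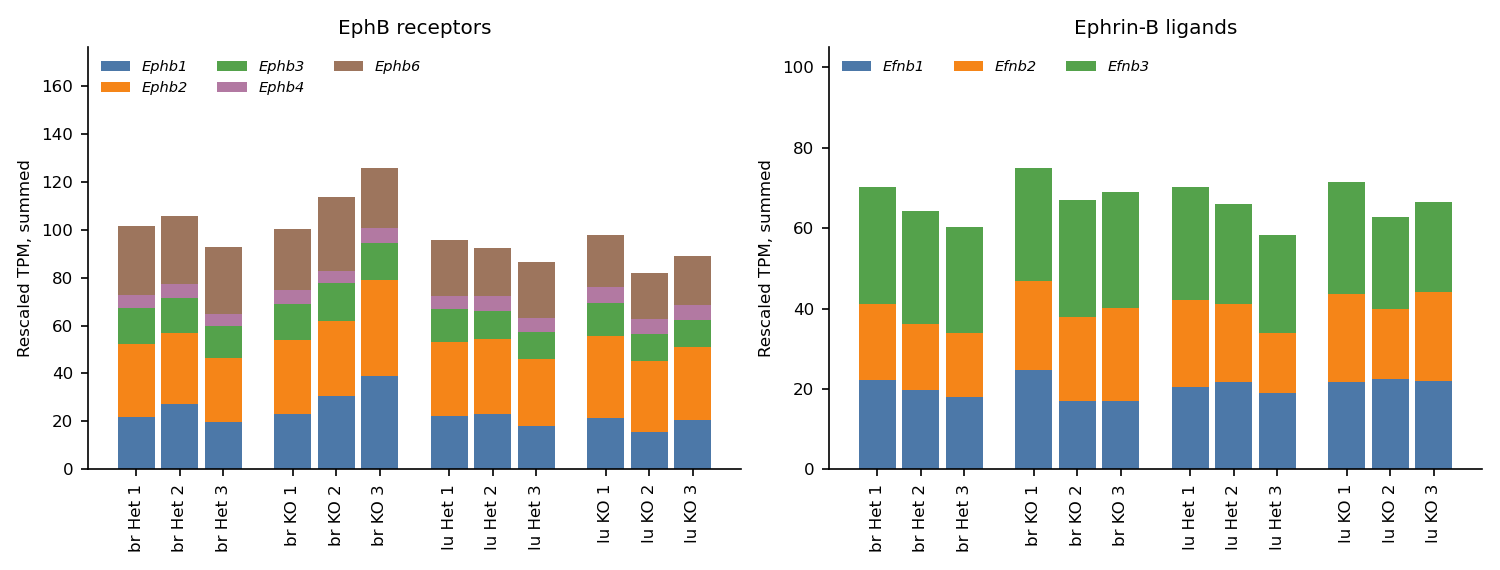
Rescaled TPM (vertical axis, from 0) of the 5 EphB receptors and the 3 ephrin-B ligands stacked in each of the 12 libraries, labelled by brachial (br) or lumbar (lu) level, genotype and replicate. The tallest receptor stack, 126 TPM, is brachial KO replicate 3, and the lumbar receptor stacks run from 82.0 to 97.8 TPM.

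Members differed in how far libraries of one group lay from each other. The SD within groups was 0.27 on the log2 scale for *Ephb1*, larger than that of 93.2% of the 4987 protein-coding genes within 2-fold of its level. For *Ephb6* it was 0.11, larger than that of 39.2% of genes of like level, and for *Ephb4* 0.12, larger than that of 14.4%. *Efnb1* (0.18) and *Efnb2* (0.18) lay in between, at 76.7% and 77.5%. A genotype difference of a given size was thus easier to resolve for *Ephb6* or *Ephb4* than for *Ephb1*.

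The comparison between spinal levels asks whether forelimb and hindlimb segments carry different amounts of these guidance transcripts. *Ephb6* and *Ephb3* were lower in lumbar than in brachial cord, and no member was higher there at an adjusted p under 0.05. The model was limma with genotype as a covariate over all 12 libraries, with Benjamini-Hochberg adjustment over 16706 genes. By this rule 2 of 8 members were called, against 18.5% of all genes, a share near the background for so few genes. At an unadjusted p under 0.05 there were 4 of 8 against 32.2%, and 1 of 8, *Ephb6*, had level groups that did not overlap, against 8.31%. The median log2 difference of the members was −0.10, and that of all genes 0.01.

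*Ephb6*, the receptor without kinase activity, was at 28.8, 28.2 and 27.9 TPM in brachial Het and 25.5, 30.7 and 25.1 TPM in brachial KO. In lumbar Het it was at 23.3, 20.3 and 23.1 TPM and in lumbar KO at 21.5, 19.2 and 20.4 TPM. Every lumbar library was below every brachial library, in both genotypes. The mean was 27.7 ± 2.12 TPM in brachial and 21.3 ± 1.65 TPM in lumbar libraries (n = 6), 1.30-fold higher at the brachial level, with a log2 difference of −0.38 (SE 0.06, 95% interval −0.51 to −0.24, limma adjusted p = 0.00195). An exact permutation test of the level labels within genotypes gave p = 0.005, the smallest its 400 regroupings allow. Leaving out each library in turn gave −0.40 to −0.33, with adjusted p-values up to 0.00671. Within Het alone the difference was −0.35 and within KO alone −0.40, with unadjusted limma p-values of 0.00183 and 0.00609, neither of which passed the adjusted threshold with 6 libraries.

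*Ephb3*, a kinase-active receptor with roles in axon guidance and midline crossing, had 14.7, 14.8 and 13.2 TPM in brachial Het and 15.0, 15.7 and 15.2 TPM in brachial KO. Its lumbar values were 13.9, 11.7 and 11.3 TPM in Het and 13.9, 11.5 and 11.1 TPM in KO. Replicate 1 of each lumbar group was above the other two and above the lowest brachial library, so the levels overlapped. The log2 difference was −0.27 (SE 0.07, 95% interval −0.43 to −0.11, adjusted p = 0.0247 by limma, exact permutation p = 0.01). This call was close to its threshold. It was lost when any of 6 single libraries was left out (brachial Het 2, brachial KO 2, lumbar Het 2 and 3, lumbar KO 2 and 3), although the difference stayed between −0.32 and −0.24, with adjusted p-values from 0.00839 to 0.0611.

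*Efnb3*, the midline ligand, moved across libraries with *Ephb3*, with a Pearson r of 0.953 over the 12 libraries, in each of which both genes share its depth and dissection. Its values were 29.1, 28.1 and 26.2 TPM in brachial Het, 28.1, 29.2 and 29.0 TPM in brachial KO, 28.1, 24.8 and 24.5 TPM in lumbar Het and 27.9, 22.8 and 22.2 TPM in lumbar KO. As for *Ephb3*, replicate 1 of each lumbar group was within the brachial range. The log2 difference of −0.18 (95% interval −0.32 to −0.03) did not pass, with an adjusted p of 0.0811 (limma). It passed without lumbar Het replicate 1 (−0.21), without lumbar KO replicate 1 (−0.22) and with protein-coding genes only (−0.25). In that last setting the median of all genes was −0.063, and relative to it *Efnb3* was at −0.18.

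*Ephb1*, a receptor of ventrally projecting axons, was at 15.7 to 23.2 TPM in the lumbar libraries (median 21.1) and at 19.8 to 38.7 TPM in the brachial ones (median 25.3). Its difference of −0.39 was as large as that of *Ephb6* but had a wider interval (−0.71 to −0.06) and an adjusted p of 0.0928 (limma). It was −0.66 within KO alone (30.9 TPM in brachial, 19.3 TPM in lumbar) and −0.11 within Het alone (23.0 and 21.2 TPM), and the test of the gap between these values did not pass (limma adjusted p = 0.812). The remaining members showed no difference between levels that passed. *Ephb2* differed by −0.03 (95% interval −0.19 to 0.14), *Ephb4* by 0.07 (−0.10 to 0.25), *Efnb1* by 0.11 (−0.09 to 0.31), and *Efnb2* had the same mean at both levels, 19.5 TPM (−0.21 to 0.21).

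Several cell type markers moved with spinal level. All 10 endothelial markers were lower in lumbar libraries, 6 of them called, with sums of 97.8 to 133 TPM in brachial and 87.2 to 102 TPM in lumbar libraries, and all 4 tested artery and vein markers were lower, 1 called. Microglial markers were lower in 10 of 10, 6 called. The 5 tested mesenchyme and cartilage markers, of 11 listed, were also all lower, 3 called. Sums of the list were 108 to 120 TPM in brachial and 78.9 to 107 TPM in lumbar libraries, mostly from *Dcn* and *Col2a1* (means of 58.0 and 37.7 TPM). *Col1a1*, *Twist1*, *Prrx1*, *Pax1*, *Pax9* and *Lum* were below the filter, with means of 0.00456 to 0.302 TPM. Of 10 ventral progenitor markers 5 were called higher and 2 lower in lumbar libraries, of 9 ventral interneuron markers 4 were called higher, and of 11 MN markers 7 were higher (median log2 difference 0.14), 0 called higher and 2 called lower. MN marker sums, 499 to 562 TPM in brachial and 234 to 388 TPM in lumbar libraries, follow the most variable marker, the intermediate filament gene *Prph*, which averaged 285 TPM in brachial and 48.6 TPM in lumbar libraries. The part of these shifts in the members' differences between levels was not tested.

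Around the members, the class A relatives and the proteins that bind EphB receptors or ephrin-B tails were counted from lists. Of 13 class A genes tested, 2 were called higher in lumbar libraries and 1 lower. *Epha3*, an EphA receptor of limb-innervating motor axons, averaged 30.5 TPM in brachial and 60.4 TPM in lumbar libraries (log2 difference 0.98, adjusted p = 9.71e-05), *Efna4* differed by 0.49 and *Epha6* by −0.74. Of 34 partner genes, 4 were called higher and 3 lower. *Pdzrn3*, a PDZ-domain protein of the ephrin-B tail, went from 24.6 to 47.1 TPM (log2 difference 0.94), and *Ptpn13*, a PDZ phosphatase that acts on ephrin-B, differed by 0.32. Lower in lumbar libraries were *Pik3r1* (−0.28), *Fyn*, a Src-family kinase that phosphorylates ephrin-B (−0.16), and *Arhgef15*, an exchange factor downstream of Eph receptors (−0.48). *Arhgef15* is also expressed in vessels, whose markers were lower as described.

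The comparison of genotypes asks whether these transcripts depend on *Isl2* in the ventral cord. Calls used the threshold of the study, a log2 difference beyond 0.5 with an unadjusted limma p under 0.05. No member was called at either level or over both. The share of all genes called was 3.08% at the brachial level, 1.77% at the lumbar level and 1.81% over both levels. At an unadjusted p under 0.05 alone, 1 of 8 members (*Efnb2*) passed at the brachial level against 13.9% of all genes, 0 of 8 at the lumbar level against 4.86%, and 1 of 8 (*Efnb2* again) over both levels against 14%. No member passed an adjusted p of 0.05, the lowest being 0.325. The exact permutation test of 3 against 3 libraries cannot go below p = 0.1.

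**Figure D3:**
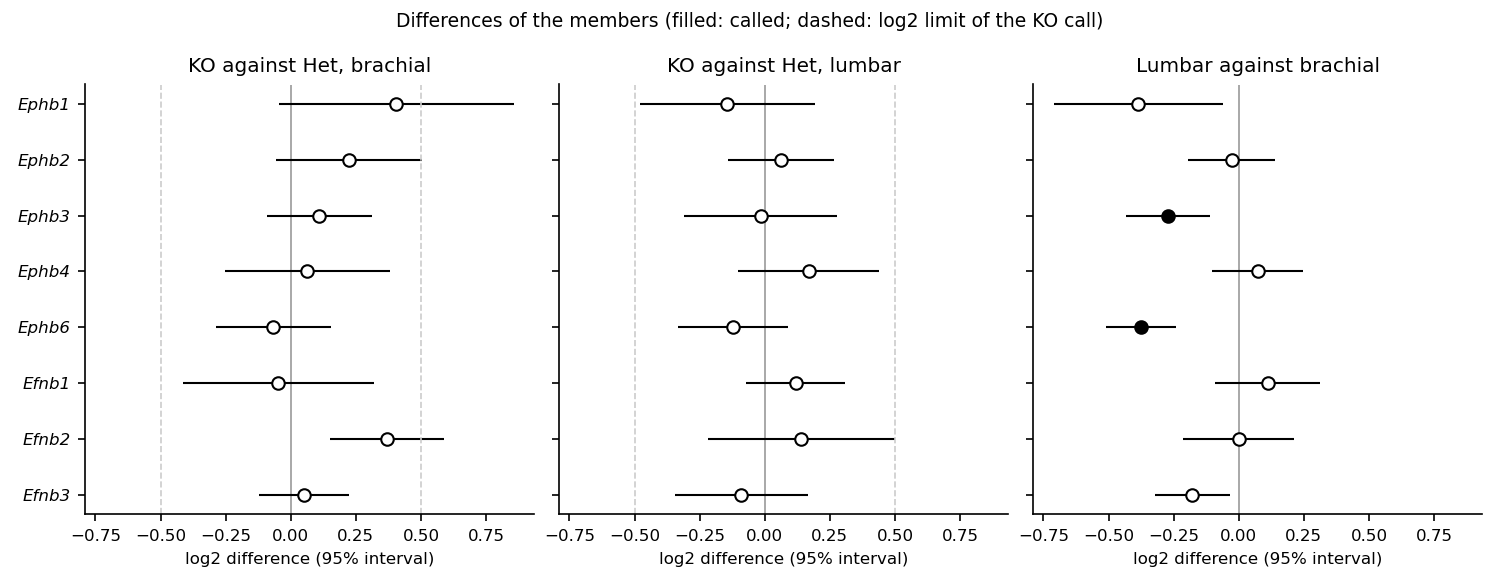
Log2 differences of the 8 members (horizontal axis) with 95% intervals from limma, for *Isl2* KO against Het at the brachial and lumbar levels (3 against 3 libraries) and for lumbar against brachial (6 against 6). Filled points passed the call of that comparison, which were *Ephb6* (−0.38) and *Ephb3* (−0.27) between levels and none between genotypes, where dashed lines mark 0.5.

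*Efnb2*, the ligand of EphB4 in vessels and of EphB receptors on motor axons, had the smallest p. At the brachial level it was at 18.9, 16.4 and 15.9 TPM in Het and 22.2, 20.9 and 23.0 TPM in KO. All 3 KO libraries were above all 3 Het libraries. The log2 difference was 0.37 (SE 0.09, 95% interval 0.15 to 0.59, p = 0.00484, adjusted p = 0.357, limma; exact permutation p = 0.1), below the size needed for a call. At the lumbar level it was at 21.5, 19.5 and 14.9 TPM in Het and 21.8, 17.3 and 22.2 TPM in KO, which overlap, with a difference of 0.14 (95% interval −0.22 to 0.50). Over both levels it was 0.25 (95% interval 0.04 to 0.47, p = 0.0226, adjusted p = 0.325, limma; exact permutation p = 0.05). Leaving out single libraries gave brachial differences of 0.32 to 0.44. With TPM as deposited it was called, at 0.55, on a scale where the median of all genes was itself shifted by 0.16.

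*Ephb1* was at 22.0, 27.3 and 19.8 TPM in brachial Het and 23.2, 30.7 and 38.7 TPM in brachial KO, an overlapping pair of groups. Its log2 difference, 0.41, was the largest of the members but had a 95% interval of −0.04 to 0.86 (adjusted p = 0.37, limma; exact permutation p = 0.2). A single library carried much of it: without brachial KO replicate 3 it was 0.23. Without brachial KO replicate 1 it was 0.59 and without brachial Het replicate 2 it was 0.53, and both passed the call. At the lumbar level *Ephb1* was at 22.3, 23.2 and 18.2 TPM in Het and 21.4, 15.7 and 20.7 TPM in KO, a difference of −0.14 (95% interval −0.48 to 0.19). The difference between the KO effects at the 2 levels was −0.55 (95% interval −1.13 to 0.03), which did not pass (limma adjusted p = 0.812).

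*Ephb2*, the most abundant member, was at 30.5, 29.4 and 26.8 TPM in brachial Het and 30.5, 31.1 and 40.4 TPM in brachial KO. The groups were just apart (exact permutation p = 0.1), the 2 closest libraries being equal to the digits shown, and the difference was 0.22 (95% interval −0.06 to 0.50). Without brachial KO replicate 3 it was 0.09, and without each of the other libraries 0.17 to 0.30. *Ephb3* was likewise apart by a small margin, with 0.11 (−0.09 to 0.31). With *Efnb2*, 3 of 8 members did not overlap between genotypes at the brachial level, all higher in KO, against 20.1% of all genes in either direction and 9.68% higher in KO. At the lumbar level 2 of 8 did not overlap, both higher in KO, against 9.94% in either direction and 4.42% higher in KO. These were *Ephb4*, at 5.20, 5.97 and 5.74 TPM in Het and 6.66, 6.19 and 6.19 TPM in KO (0.17, 95% interval −0.10 to 0.44), and *Efnb1*, at 20.5, 21.8 and 19.0 TPM in Het and 21.8, 22.6 and 22.0 TPM in KO (0.12, 95% interval −0.07 to 0.31).

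The remaining genotype differences were small in both directions. In brachial libraries *Ephb4* differed by 0.06, *Ephb6* by −0.07, *Efnb1* by −0.05 and *Efnb3* by 0.05, and in lumbar libraries *Ephb2* by 0.06, *Ephb3* by −0.02, *Ephb6* by −0.12 and *Efnb3* by −0.09. *Efnb1* in brachial KO was at 24.7, 17.1 and 17.1 TPM, against 22.3, 19.7 and 18.1 TPM in Het, so 1 KO library lay above and 2 below all of Het. Over both levels the 95% intervals of all 8 members lay between −0.23 and 0.47, short of the 0.5 that the call requires. The median log2 difference of the 8 members was 0.09 in brachial and 0.02 in lumbar libraries, against −0.01 for all genes in each. No member's KO effect differed between levels at an unadjusted p under 0.05, against 4.42% of all genes, and 0 genes passed after adjustment. *Ephb1* went below that p with a replicate block (−0.55, limma adjusted p = 0.809) and without brachial Het replicate 2, brachial KO replicate 1 or lumbar Het replicate 3 (differences of −0.68, −0.74 and −0.66), as did *Efnb1* without brachial KO replicate 1 (0.34) and *Efnb2* without lumbar Het replicate 3 (−0.38). None of these passed after adjustment.

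The neighbours of the pathway gave no genotype call either. None of 13 class A genes and none of 34 partner genes was called at the brachial level, at the lumbar level or over both. All 9 blood markers tested had a higher mean in KO at each level, 0 called in brachial and 1 in lumbar libraries, with median log2 differences of 0.48 and 0.42. Over both levels all 9 were also higher and 2 were called, *Hba-x* (0.70) and *Alas2* (0.61). Blood sums were 2377 to 3957 TPM in brachial Het and 3362 to 6701 TPM in brachial KO. In lumbar libraries they were 2391 to 3818 TPM in Het and 3084 to 4903 TPM in KO, and the genotypes overlapped at both levels. Floor plate markers were higher in brachial KO in 8 of 9 tested, none called, with sums of 237 to 259 TPM in Het and 262 to 314 TPM in KO. Endothelial sums were 127 to 133 TPM in brachial Het and 97.8 to 128 TPM in brachial KO. Of 4 tested artery and vein markers 1 was higher in brachial KO, *Dll4* (log2 difference 0.37), and none was called. *Gja4* of the same list differed by −0.22. The artery and vein sums were 15.4 to 16.7 TPM in brachial Het and 14.9 to 16.6 TPM in brachial KO. Ventral interneuron markers were higher in brachial KO in 8 of 9, 1 called, with sums of 74.3 to 82.4 TPM in Het and 72.5 to 101 TPM in KO. Of 10 ventral progenitor markers 5 were higher there, 1 called (*Nkx6-1*), with sums of 2888 to 3289 TPM in Het and 2387 to 2979 TPM in KO. Those sums came mostly from *Fabp7* and *Vim*. Of 5 tested sensory neuron markers 3 were higher, 1 called (*Prdm12*), with sums of 18.2 to 26.3 TPM in Het and 17.5 to 27.4 TPM in KO, and of 7 tested neural crest and Schwann cell markers 6 were higher, none called, with sums of 86.3 to 109.5 TPM in Het and 92.1 to 136 TPM in KO. The MN list holds *Isl2* itself, the targeted gene. At the brachial level 7 of 11 MN markers were higher in KO and *Isl2* was the 1 called lower, with sums of 545 to 562 TPM in Het and 499 to 530 TPM in KO, which did not overlap. At the lumbar level 10 of 11, *Isl2* among them, were lower in KO, 1 called (*Prph*), with sums of 296 to 388 TPM in Het and 234 to 321 TPM in KO, and 7 of 7 dorsal cord markers were higher, 1 called, with sums of 29.6 to 44.4 TPM in Het and 37.5 to 56.6 TPM in KO. The part of these shifts in the members' genotype differences was not tested.

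**Figure D4:**
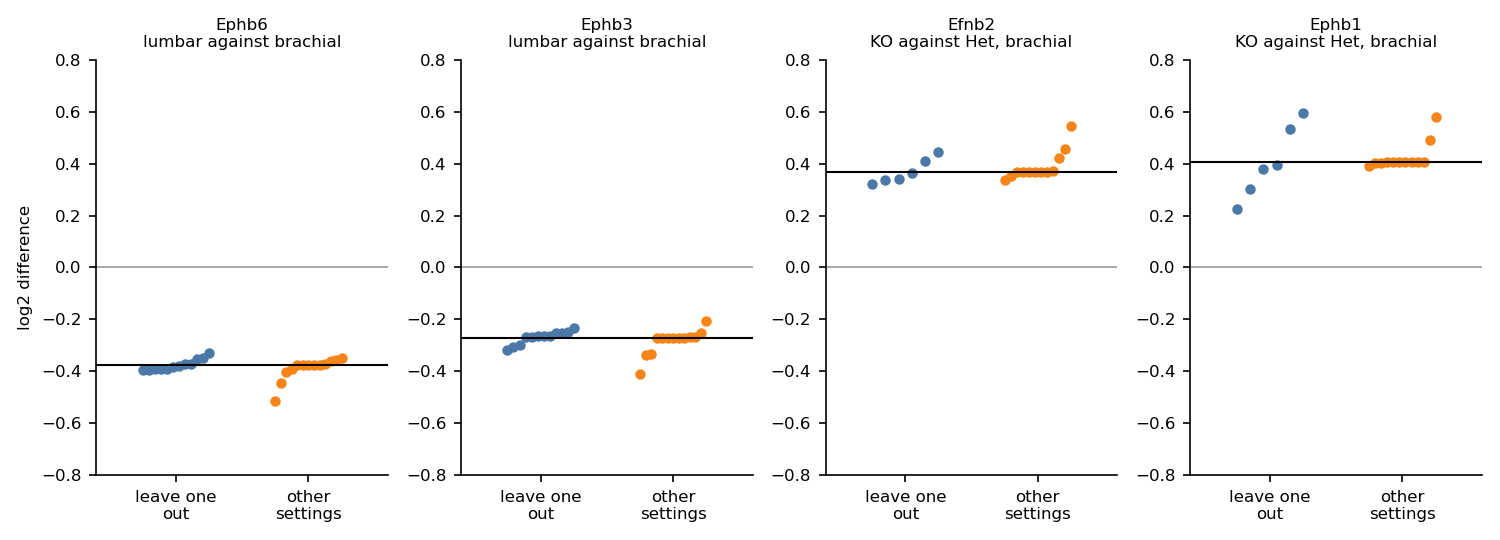
Log2 differences (vertical axis, the same in the 4 panels) of *Ephb6* and *Ephb3* between levels and of *Efnb2* and *Ephb1* between brachial genotypes, with a black line for the reported value, blue points for leaving out each library in turn and orange points for the other processing settings. *Ephb6* stays between −0.52 and −0.33, *Ephb1* spreads from 0.23 to 0.59, and no point of the 4 panels crosses 0.

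Over the 12 libraries, each member was also set beside the 12556 other protein-coding genes of at least 1 TPM by Pearson correlation of log2 levels, as a description of likeness only, since all genes of a library share its depth, its dissection and its level and genotype. Among the genes most like *Ephb1* were *Fry* (r = 0.985) and *Ugcg*, a glucosylceramide synthase (0.978). *Ephb2* was most like *Ssh1*, a cofilin phosphatase (0.979), *Ddx19a* (0.960) and *Clip3* (0.959). *Ephb3* was most like *Rab11fip5* (0.989), *Itga3*, an integrin subunit (0.984), and *Cul9* (0.972). *Ephb6* was nearest to *Tro* (0.972), *Clstn3*, a synaptic calsyntenin (0.966), and *Endod1* (0.964), and *Ephb4* had the loosest likeness, to *Mss51* (0.884), *Gprc5b* (0.874) and *Foxo4* (0.841). For the ligands the nearest were *Igfbp2*, an insulin-like growth factor binding protein (0.942), *Rgs16* (0.913) and *Gadd45g* (0.879) for *Efnb1*. *Efnb2* was nearest to *Slc18b1* (0.955), *Tmem131l* (0.912) and *Lama1*, a laminin subunit (0.898), and *Efnb3* to *Mgat5b*, a glycosyltransferase (0.971), *Lrrc20* (0.965) and *Lpcat4* (0.960). No gene was shared between the 8 lists of 3.

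Among the members themselves *Ephb3* and *Efnb3* were the closest pair (r = 0.953), followed by *Ephb3* and *Ephb6* (0.775). *Ephb6* and *Ephb4* ran in opposite directions (−0.572), as did *Ephb1* and *Efnb1* (−0.540). The 8 genes lie on 8 different chromosomes, so no pair is a neighbour in the genome. *Ephb1*, on chromosome 9 from 101922128 to 102354693, has the longest span, 432566 bases, and *Efnb3*, on chromosome 11 from 69554092 to 69561150, the shortest, 7059 bases. *Ephb1* overlaps 5 small or noncoding annotations and *Ephb2* overlaps 2, and the other members overlap none.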

How the data were processed

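Total RNA of ventral spinal cord from 12 libraries was prepared with a stranded, ribosomal RNA depleted kit. The submitters' processing notes name FastQC 0.11.7, Trimmomatic 0.38, HISAT2 2.1.0, Bowtie2 2.3.4.1 and StringTie 2.1.3b, with mm10. The authors ran StringTie on each library, and its TPM column was deposited. The deposited FPKM values come from the same run of the authors, as does the deposited coverage, a mean signal per base. No counts are held, so the count-based test of the study's methods could not be run, and the counting error of a gene is unknown. In the tables, 5 small RNAs took 23.7% to 38.2% of TPM in a library.

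Groups and replicate numbers came from the labels. Median-of-ratios size factors over all 12 libraries rescaled TPM. After adding 0.1, limma 3.58.1 (R 4.3.3; lmFit, trended eBayes) was run on the log2 scale for genes whose mean was 0.5 TPM or more, so a log2 difference is on the log2(TPM + 0.1) scale. KO was compared with Het in 6 libraries per level and in 12 with level as a covariate, and levels in 12 with genotype as a covariate. The KO call was a log2 difference beyond 0.5 with an unadjusted p under 0.05, and the call between levels an adjusted p under 0.05 (Benjamini-Hochberg). Exact permutation tests, 2-sided, used 20 regroupings within a level and 400 over 2 strata. P-values measure the spread between these libraries. The fit was tested on simulated data.

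Symbols and coordinates came from RefSeq for GRCm38.p6, which matched 45679 of 45777 identifiers. The members and lists were chosen with earlier results of these data known. Named genes are the 8 members, up to 4 called genes of smallest p per direction and list, and the 3 genes most like each member, of which some are not reported here. Alternatives are listed in the closing section. Python 3.11.15, pandas 2.3.3 and matplotlib 3.10.9 were used.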

Additional observations from a re-analysis of the deposited data

Results flagged for a closer look

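Within the 6 brachial libraries, *Ephb2* in KO replicate 3 stood apart. Its gap to the next library was 0.68 of the whole range, beyond the critical value of Dixon's test for 6 libraries. That library, at 40.4 TPM, also had the highest *Ephb1* level (38.7 TPM), the fewest inferred aligned bases (4.48 Gb) and the highest sum of blood markers (6701 TPM). *Efnb3* in brachial Het replicate 3 (26.2 TPM) was apart from the other 5 on the low side, with a gap of 0.65 of the range. Among 32 sets of 6 libraries examined in this way, chance flags about 1 in 20.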

How the results depend on the processing

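The settings tried in turn were pseudocounts of 0.001 and 1, other filters (none, or a mean TPM of 1), other values (TPM as deposited, quantile-normalized TPM, protein-coding genes only, coverage, FPKM), eBayes with no trend, a replicate block, a common fit of all 12 libraries, one genotype alone, and each library left out. Of 856 member results under these, 800 kept their direction and side of the threshold, 39 changed sign, 10 lost a call and 7 gained one (cause not tested). With TPM as deposited, 2 members were called at the brachial level, *Ephb1* (0.58) and *Efnb2* (0.55), where the median of all genes moved to 0.16, so relative to it they were at 0.42 and 0.38. The number called ranged from 0 to 1 at the brachial level (1 without Het replicate 2 or KO replicate 1, *Ephb1* each time) and from 1 to 3 between spinal levels when single libraries were left out. It was 0 between spinal levels in Het alone and 0 in KO alone, where *Ephb6* and *Ephb3* kept their sign with 6 libraries instead of 12. In coverage, 2 of 8 members kept their rank in the order of levels, and with protein-coding scaling all 8 did.

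The sign changes were all in differences that passed in no setting tried. With TPM as deposited they were, for KO at the brachial level, *Ephb6* 0.11 and *Efnb1* 0.13, over both levels *Efnb3* 0.073, for the difference of KO effects *Ephb4* −0.057, and between spinal levels, where the median of all genes was −0.13, *Ephb4* −0.065, *Efnb1* −0.027 and *Efnb2* −0.14. With protein-coding genes only they were *Ephb6* 0.020 and *Efnb1* 0.040 at the brachial level, *Efnb3* 0.029 over both, and *Efnb2* −0.068 between spinal levels. Quantile normalization gave *Ephb4* −0.0021 at the brachial level and *Efnb2* −0.0054 between spinal levels, Het alone gave *Ephb2* 0.053, and KO alone *Efnb2* −0.11. Leaving out single libraries gave, for KO at the brachial level, −0.016 to 0.15 for *Ephb4* and −0.22 to 0.041 for *Efnb1*. For KO at the lumbar level it gave −0.00014 to 0.11 for *Ephb2*, −0.12 to 0.073 for *Ephb3* and −0.010 to 0.25 for *Efnb2*, and over both levels −0.033 to 0.084 for *Efnb1* and −0.058 to 0.016 for *Efnb3*. The difference of KO effects ranged from −0.12 to 0.039 for *Ephb6*, and the difference between spinal levels from −0.060 to 0.039 for *Ephb2* and −0.062 to 0.063 for *Efnb2*.

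At the brachial level 371 genes were higher and 146 lower in KO, against 1211 and 47 with TPM as deposited and 488 and 29 with protein-coding genes only. Leaving out single libraries gave 142 to 1046 and 116 to 336. At the lumbar level 163 were higher and 132 lower, with ranges over the other settings of 82 to 334 and 72 to 288. Over both levels 204 were higher and 99 lower, with 369 and 46 for TPM as deposited and ranges of 84 to 403 and 26 to 258. Between spinal levels 1488 were higher and 1607 lower in lumbar libraries, against 646 and 2214 with TPM as deposited and 1062 and 2251 with protein-coding genes only. The counts were 161 and 327 in Het alone and 137 and 161 in KO alone. Leaving out single libraries gave 138 to 303 higher and 110 to 197 lower in KO at the lumbar level. For KO over both levels it gave 134 to 372 and 87 to 133, and between spinal levels 940 to 1737 and 1115 to 1820.

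Deviations from the group means correlated between same-numbered Het and KO libraries by 0.079, 0.23 and 0.0092 in brachial and by 0.14, −0.21 and −0.093 in lumbar cord, and between same-numbered brachial and lumbar libraries by −0.022, 0.20 and 0.34 in Het and 0.029, −0.21 and 0.071 in KO, so numbers alone do not pair them. With the replicate block the members called were 0 for KO at each level and over both, 0 for the difference of KO effects and 2 between spinal levels, and no member's call changed.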
